A study of Mus musculus with 2 samples.

Results

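The genes described here are 9 mouse genes of the NF-κB pathway out of 21938 protein-coding genes, which were chosen by name. Nfkbia, Nfkbie, Nfkbiz and Bcl3 encode inhibitors and nuclear IκB proteins, Nfkb1, Nfkb2, Rela and Relb encode subunits of the transcription factor, and Tnfaip3 encodes the feedback protein A20. For each gene, every Etv4 or Etv5 ChIP-seq region that touched the gene or lay within 50 kb of it was collected. This gave 32 of the 13636 regions of the Etv4 list and 11 of the 8297 regions of the Etv5 list. The 2 libraries were made from EpRas cells, a line obtained by transforming the mouse mammary epithelial line EpH4 with oncogenic H-Ras, and both came from cells grown in 4% serum and given 1 ng/ml TGF-β3 for 1.5 h. Etv4 and Etv5, transcription factors of the ETS family, were precipitated with a rabbit polyclonal and a mouse monoclonal antibody, respectively. There was 1 library per antibody, so no test between the lists was possible and no difference could be set against a spread between replicates. Regions were called on each library alone without an input library, the lists give no read counts and the depth behind a region is unknown. Untreated cells and cells without H-Ras were not analysed here, and the lists hold no expression values with which the cell type could be checked.

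NF-κB dimers are held in the cytoplasm by IκB proteins until a kinase complex marks these inhibitors for degradation, after which the dimers enter the nucleus and bind κB sites. The genes for IκBα, IκBε, A20 and several of the subunits are themselves well-known NF-κB targets, and this forms the feedback that ends or reshapes the response. In epithelial cells, the pathway is best known for responses to inflammatory cytokines, and it has been connected with Ras transformation and with the epithelial-mesenchymal transition.

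Sequences of the regions on which the description turns are printed first, from GRCm38, the assembly that mm10 names. Capitals mark matches to 3 patterns on either strand, and a match on the strand opposite to the printed one appears as its reverse complement. These are the κB pattern (GGGRNWYYCC), AP-1 (TGACTCA or TGAGTCA) and RUNX (TGTGGTT or TGTGGTC). The κB pattern is a consensus of 10 bases for sites of NF-κB dimers. In it, R is A or G, N is any base, W is A or T and Y is C or T. Whether NF-κB binds a given match was not tested. The ETS pattern, CAGGAAGT or CCGGAAGT, was searched in the same way and would also be in capitals, but it did not occur in the sequences of this paragraph. The first set shows DNA in and around regions at the starts of the genes, each with a κB match that lies inside a region. The Nfkbia and Nfkbie promoters are the 250 bases before the RefSeq start, of which the outermost bases lie outside the regions, and the Bcl3 sequence is the outer part of the Etv5 region upstream of that gene. Bases of untranslated exons were kept to 30 at most, so that Nfkbiz, Nfkb2 and Tnfaip3 are shown only around a match, with that match alone in capitals.
Nfkbia promoter (chr12:55492648-55492897, minus strand): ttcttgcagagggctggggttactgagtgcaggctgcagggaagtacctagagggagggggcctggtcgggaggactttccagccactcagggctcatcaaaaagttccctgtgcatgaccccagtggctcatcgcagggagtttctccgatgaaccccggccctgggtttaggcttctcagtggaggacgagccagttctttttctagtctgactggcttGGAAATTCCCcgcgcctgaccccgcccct
Nfkbie promoter (chr17:45555450-45555699, plus strand): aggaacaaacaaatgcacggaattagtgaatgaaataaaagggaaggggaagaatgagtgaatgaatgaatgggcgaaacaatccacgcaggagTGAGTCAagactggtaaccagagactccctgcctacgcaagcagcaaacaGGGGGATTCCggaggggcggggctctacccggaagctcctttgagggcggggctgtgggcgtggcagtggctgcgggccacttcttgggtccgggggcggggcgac
Bcl3 upstream region (chr7:19824125-19824424, minus strand): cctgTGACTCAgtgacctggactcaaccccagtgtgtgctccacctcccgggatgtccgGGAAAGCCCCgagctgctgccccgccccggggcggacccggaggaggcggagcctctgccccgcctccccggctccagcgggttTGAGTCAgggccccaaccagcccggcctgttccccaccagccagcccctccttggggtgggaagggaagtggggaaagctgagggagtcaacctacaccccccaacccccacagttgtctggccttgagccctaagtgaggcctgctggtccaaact
Nfkbiz start region (chr16:55838850-55838879, minus strand): tttttggcctGGGAATTTCCagcgtgtgga
Nfkb2 start region (chr19:46304688-46304717, plus strand): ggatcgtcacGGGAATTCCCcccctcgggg
Tnfaip3 start region, first match (chr10:19015516-19015545, minus strand): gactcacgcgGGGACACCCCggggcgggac
Tnfaip3 start region, other match (chr10:19015403-19015432, plus strand): ttgccaacagGGGGATTTCCgatggaaatt

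The next set shows DNA common to an Etv4 and an Etv5 region far from the gene start, in intron 1 of Nfkb1, upstream of Nfkb1 and upstream of Tnfaip3. These pairs are shown for their AP-1 matches. The other 3 pairs away from the gene start, at Nfkbie, Nfkbiz and Nfkb2, had no AP-1 match in either region. In the Tnfaip3 sequence, the AP-1 match is followed without a gap by a RUNX match, so that they form a single run of capitals.
Nfkb1 intron 1 pair (chr3:135670965-135671264, minus strand): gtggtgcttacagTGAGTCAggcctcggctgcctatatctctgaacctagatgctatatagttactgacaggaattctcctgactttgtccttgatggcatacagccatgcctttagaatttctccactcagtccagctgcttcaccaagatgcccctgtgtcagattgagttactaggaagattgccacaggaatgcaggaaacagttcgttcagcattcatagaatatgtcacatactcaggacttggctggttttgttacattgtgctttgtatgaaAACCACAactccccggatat
Nfkb1 upstream pair (chr3:135711785-135712064, minus strand): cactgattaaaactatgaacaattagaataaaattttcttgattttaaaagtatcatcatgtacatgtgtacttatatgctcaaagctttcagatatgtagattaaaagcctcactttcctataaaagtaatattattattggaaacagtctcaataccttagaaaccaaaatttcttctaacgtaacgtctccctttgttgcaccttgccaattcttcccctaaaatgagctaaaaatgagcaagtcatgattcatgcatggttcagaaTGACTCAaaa
Tnfaip3 upstream pair (chr10:19046060-19046308, minus strand): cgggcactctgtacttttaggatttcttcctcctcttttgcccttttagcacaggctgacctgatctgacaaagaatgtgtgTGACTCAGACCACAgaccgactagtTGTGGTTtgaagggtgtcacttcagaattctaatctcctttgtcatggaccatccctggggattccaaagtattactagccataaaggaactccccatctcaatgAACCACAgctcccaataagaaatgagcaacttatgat

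The last set shows ETS matches, which lay only in regions outside the genes, in the windows of Nfkbie and Rela. Capitals mark the ETS pattern here, and distances are those of the match from the gene start.
Nfkbie window, 17.2 kb downstream (chr17:45572867-45572894, plus strand): gcagccgcgcCCGGAAGTggagggcaaa
Nfkbie window, 28.9 kb downstream (chr17:45584564-45584591, plus strand): cgttgttctcCAGGAAGTctggcagcct
Nfkbie window, 41.1 kb downstream (chr17:45596781-45596808, plus strand): aaacagagggCAGGAAGTcaggcttggg
Rela window, 28.2 kb upstream (chr19:5609258-5609285, plus strand): gggcgggaccCAGGAAGTccgttcttgg
Rela window, 27.4 kb upstream (chr19:5610039-5610066, minus strand): cccagaggggCCGGAAGTggcagtggag

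An Etv4 region touched or came within 50 kb of all 9 genes, and an Etv5 region did so for 7. The same held for 53.4% of all protein-coding genes with Etv4 and for 42.7% with Etv5. Rela and Relb were without an Etv5 region. Regions of both lists overlapped by at least 1 bp at 6 of the 9 genes (Nfkbia, Nfkbie, Nfkbiz, Nfkb1, Nfkb2 and Tnfaip3), in 7 pairs, and at 29.5% of all protein-coding genes. The number of Etv4 regions was 6 at Nfkbie and Nfkb2, 5 at Nfkbiz and Rela, 3 at Nfkbia and Nfkb1, 2 at Tnfaip3 and 1 at Bcl3 and Relb. Their median was 3, compared with 1 over all protein-coding genes (quartiles 0 and 2). Etv5 regions numbered 3 at Nfkb1, 2 at Nfkbie and Nfkb2, and 1 at Nfkbia, Nfkbiz, Bcl3 and Tnfaip3. Their median was 1, compared with 0 over all genes (quartiles 0 and 1). Of all protein-coding genes, 6.09% had 6 or more Etv4 regions and 9.73% had 3 or more Etv5 regions. By role, the 4 IκB genes (Nfkbia, Nfkbie, Nfkbiz and Bcl3) and the 4 subunit genes had the same numbers, 15 Etv4 and 5 Etv5 regions each. In both groups, 3 regions of each list overlapped the other.

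**Figure D1:**
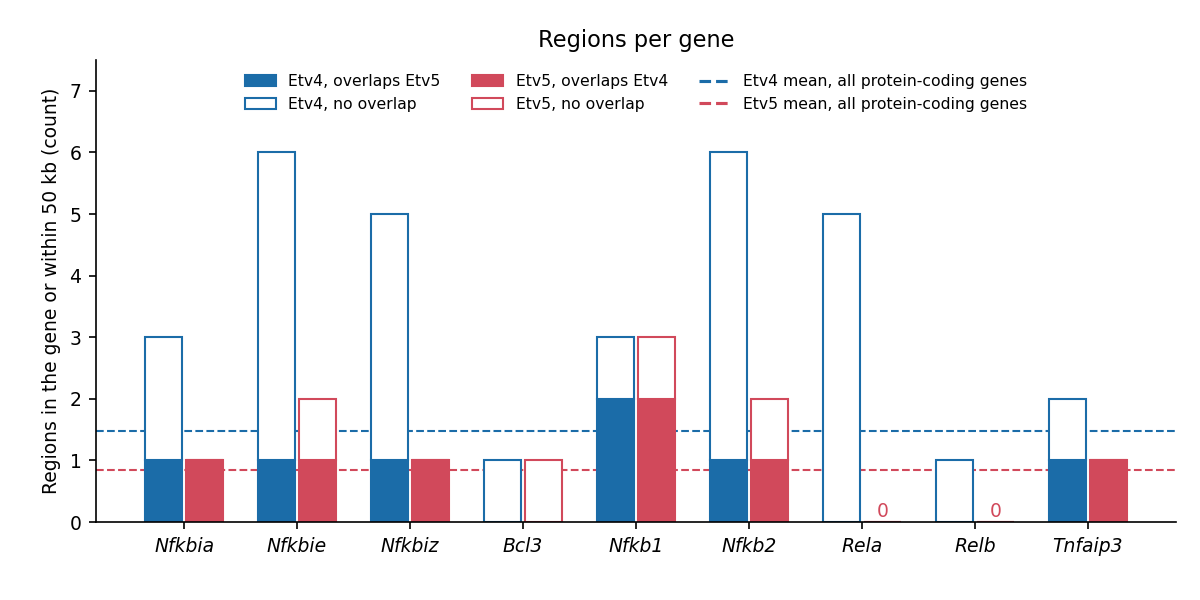
Number of Etv4 (blue) and Etv5 (red) regions in each gene or within 50 kb of it, with filled parts for regions that overlapped the other list and dashed lines at the mean over all 21938 protein-coding genes (1.48 and 0.84). Nfkbie and Nfkb2 had 6 Etv4 regions each, Nfkb1 had 3 regions of both lists, and Rela and Relb had 0 Etv5 regions.

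The windows of these genes also hold other genes. Only 15 of the 32 Etv4 regions, but 8 of the 11 Etv5 regions, had a transcript of one of the 9 genes as their nearest annotated transcript start. The number of other protein-coding genes in the window was 0 at Nfkbia and Tnfaip3, 1 at Nfkbiz and Nfkb1, 4 at Bcl3, 5 at Rela, 6 at Nfkb2, 7 at Nfkbie and 8 at Relb. The windows covered 1.12 Mb together and held 28.7 Etv4 and 9.86 Etv5 regions per Mb, against 6.81 and 4.06 per Mb in the 50 kb windows of all protein-coding genes. The part that neighbouring genes have in this density was not tested.

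**Figure D2:**
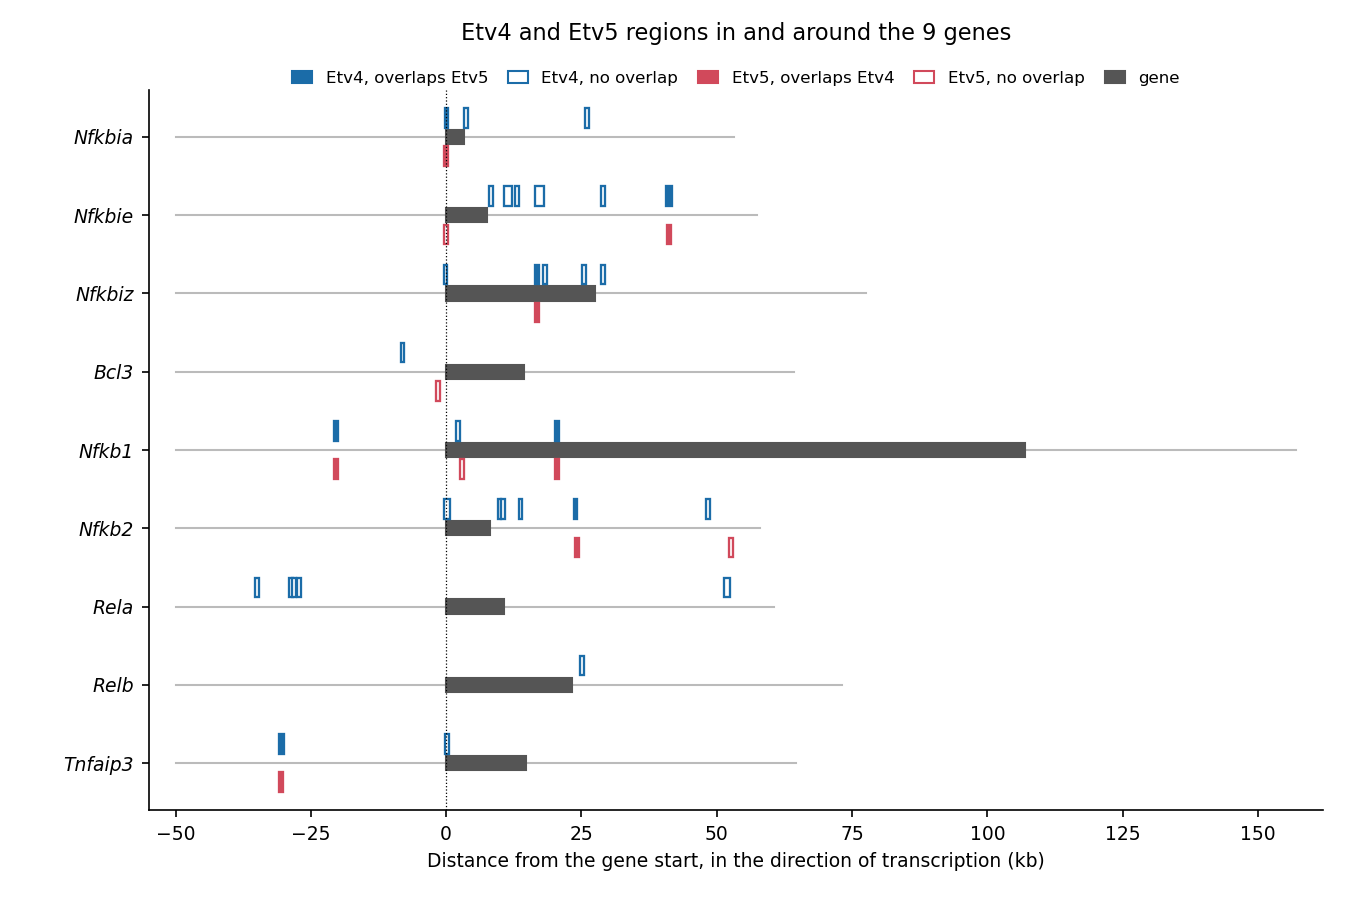
Position of every region relative to the gene start, in kb along the direction of transcription, for the 9 genes (grey bars), with Etv4 above and Etv5 below each line and filled boxes for regions that overlapped the other list. Short regions are drawn wider than to scale. In all, 4 Etv4 and 2 Etv5 regions spanned a gene start, and the regions of Rela and Relb all lay outside the gene.

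The gene starts were then examined, because promoters are where the feedback genes are known to be controlled by NF-κB. Measured from the nearer edge of the region, Etv4 regions came within 2 kb of the start at 5 of 9 genes, namely Nfkbia, Nfkbiz, Nfkb1, Nfkb2 and Tnfaip3, compared with 15.8% of all protein-coding genes. Etv5 regions did so at 3 genes, Nfkbia, Nfkbie and Bcl3, compared with 8.95%. Nfkbia was the gene with both, which applied to 5.29% of all genes. Nfkbie and Bcl3 had an Etv5 but no Etv4 region at the start, which applied to 3.66%. An Etv4 region spanned the first base of the gene at Nfkbia, Nfkbiz, Nfkb2 and Tnfaip3 (4 genes, 9.91% of all genes), and an Etv5 region at Nfkbia and Nfkbie (2 genes, 4.35%). By role, Etv5 regions at the start occurred at 3 of the 4 IκB genes and at 0 of the 4 subunit genes. Of these 3, Nfkbia and Nfkbie encode inhibitors and Bcl3 a nuclear IκB protein. Etv4 regions at the start occurred at 2 genes of each group. Within 5 kb of the start the Etv5 count rose to 4 genes with the subunit gene Nfkb1, whose region began 2803 bp inside the gene, and in the longer 50% of the Etv5 list it was 0. With regions touching the gene counted, Etv4 had 9 regions in 5 genes (23.0% of all genes) and Etv5 had 5 regions in 4 genes (14.7%).

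Nfkbia (ENSMUSG00000021025.8) encodes IκBα, the inhibitor that is degraded first and resynthesised first after stimulation, and lies on the minus strand at chr12:55489410-55492647. Its start was covered by the Etv4 region chr12:55492266-55492878 and by the Etv5 region chr12:55492463-55492866. The Etv5 region lay wholly within the Etv4 region, which it covered to 65.9%, and their midpoints were 92 bp apart. The Etv4 midpoint fell in the untranslated part of exon 1, 75 bp downstream of the gene start. Both regions contained the κB match GGGAATTTCC, 25 bases upstream of the start, in capitals in the promoter printed above. It was 8 bp from the midpoint of the Etv5 region. A further Etv4 region, chr12:55488799-55489180, lay 230 bp beyond the 3′ end of the gene and also had a κB match, GGGACACCCC. The remaining Etv4 region was intergenic and 26.1 kb downstream of the start.

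Nfkbie (ENSMUSG00000023947.8) encodes IκBε, an inhibitor that is resynthesised more slowly, and lies on the plus strand at chr17:45555703-45563169. The Etv5 region chr17:45555479-45555845 spanned its start, with the midpoint 41 bp upstream. No Etv4 region lay within 7828 bp of it. It contained the κB match GGGGGATTCC and an AP-1 match, both in the promoter printed above. The 6 Etv4 regions all lay downstream of the gene, from 8.3 to 41.2 kb from its start, and the nearest protein-coding gene start of each was that of another gene. These were Slc35b2, which encodes a transporter for the sulfate donor PAPS, Hsp90ab1, which encodes the chaperone HSP90β, and Slc29a1, which encodes a nucleoside transporter. They included the lowest-numbered Etv4 region of all 9 genes, chr17:45566398-45567911 (number 868, 6.37% of the list, 1514 bp), in an exon of Slc35b2. The region with number 1209 (8.87% of the list, 1561 bp) lay at the start of Hsp90ab1 and had the ETS match CCGGAAGT. The overlapping pair was 41.2 kb downstream, at a transcript start of Slc29a1, with midpoints 1 bp apart and the ETS match CAGGAAGT in both regions. It held the lowest-numbered Etv5 region of the set (number 2130, 25.7% of the list).

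Nfkbiz (ENSMUSG00000035356.17) encodes IκBζ, a nuclear protein that joins NF-κB on DNA, and lies on the minus strand at chr16:55811375-55838899. The Etv4 region chr16:55838723-55839320 spanned its start and had the same κB bases as Nfkbia, GGGAATTTCC, 34 bases downstream of the start. The other list had no region there. Inside the gene, the Etv4 region chr16:55821768-55822517 and the Etv5 region chr16:55821823-55822278 overlapped 16.8 kb downstream of the start. Their midpoints fell in intron 2 and in exon 3 of a transcript of 14 exons, and lay 4 and 88 bp from the start of another transcript of the same gene. Neither had a match to any of the 4 patterns. The Etv5 region lay wholly in the Etv4 region. Of the other Etv4 regions, chr16:55820396-55820888 was in intron 3 and had the κB match GGGAGATTCC, chr16:55813348-55813671 was in intron 13, and the remaining region lay 1223 bp beyond the 3′ end.

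Bcl3 (ENSMUSG00000053175.17) encodes a nuclear IκB protein that binds p50 and p52 dimers and lies on the minus strand at chr7:19808462-19822770. It had no region inside the gene. The Etv5 region chr7:19824011-19824424 had its midpoint 1447 bp upstream of the start, and the Etv4 region was 8061 bp upstream. A gap of 6126 bp separated them. The Etv5 region had the κB match GGGGCTTTCC, 1591 bases upstream of the start, and an AP-1 match on either side of it, as printed above. The Etv4 region had an AP-1 match and no κB match.

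**Figure D3:**
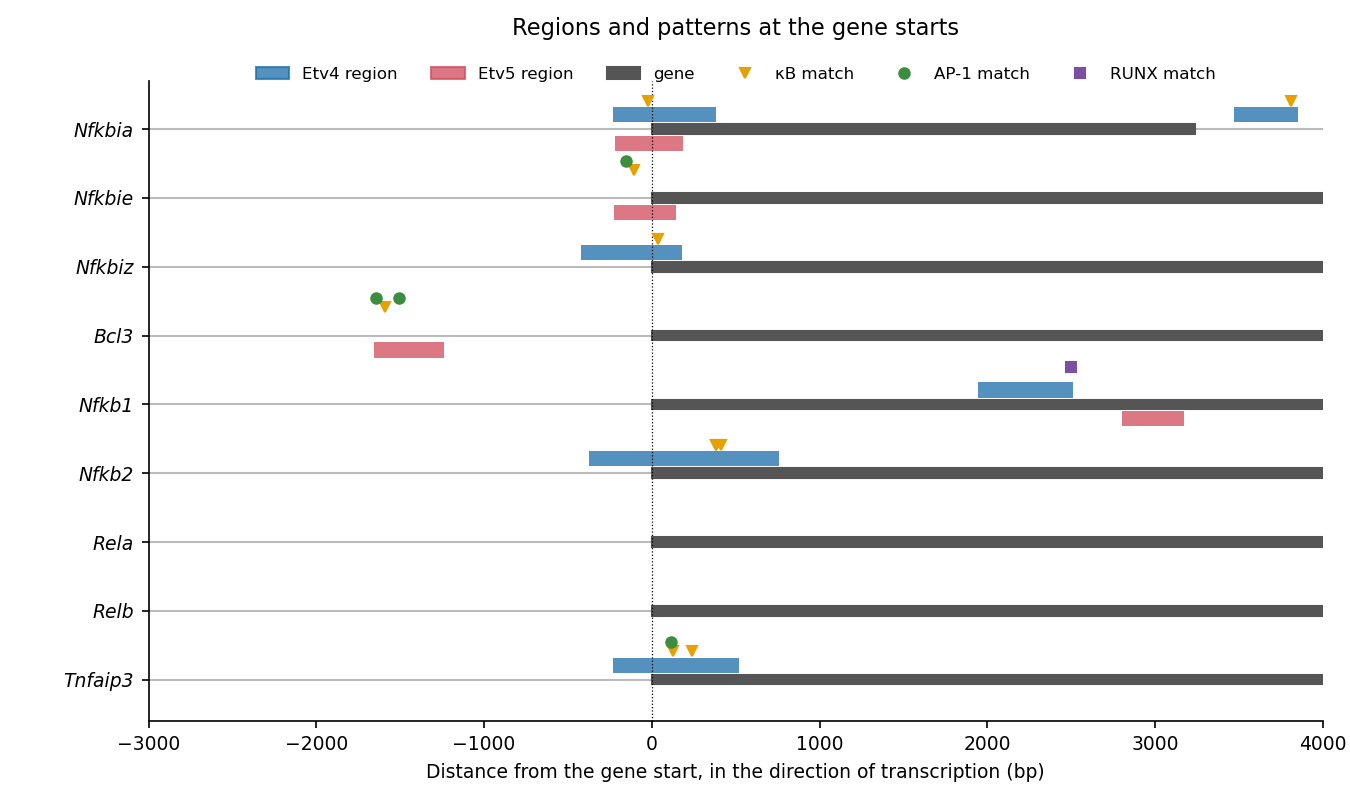
Regions of both lists (Etv4 blue, Etv5 red) around the gene starts, in bp along the direction of transcription, with pattern matches inside the regions drawn above each gene. A κB match lies in the start regions of Nfkbia, Nfkbie, Nfkbiz, Bcl3, Nfkb2 and Tnfaip3, the first region of Nfkb1 begins 1944 bp inside the gene, and Rela and Relb have no region in this span.

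Nfkb1 (ENSMUSG00000028163.17) encodes p105, the precursor of the subunit p50, and is the longest of the 9 genes, on the minus strand at chr3:135584655-135691547. It had 3 regions of each list. In intron 1, the Etv4 region chr3:135670792-135671386 and the Etv5 region chr3:135670770-135671357 had nearly the same borders. Their common part of 566 bp made up 95.1% of the Etv4 and 96.3% of the Etv5 region, the highest share of an Etv4 region among the 7 pairs. They lay 20.5 kb downstream of the start and 1750 and 1724 bp from the start of another Nfkb1 transcript. Both had an AP-1 and a RUNX match, printed above. The first bases of the Etv5 region, chr3:135670770-135670779, were the κB match GGGACTTTCC, which the Etv4 region did not reach. Closer to the start, also in intron 1, the Etv4 region chr3:135689036-135689603 and the Etv5 region chr3:135688375-135688744 lay 2228 and 2988 bp downstream without touching. With 292 bp between them, they were the closest of the Etv4 and Etv5 regions that did not overlap each other. The other pair, 20.3 kb upstream, was intergenic, and its common 280 bp had an AP-1 match as the only match.

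Nfkb2 (ENSMUSG00000025225.15) encodes p100, the precursor of p52, and lies on the plus strand at chr19:46304320-46312385. The Etv4 region chr19:46303948-46305075 (1128 bp) spanned its start, with no Etv5 region within 23187 bp. It had 3 κB matches, from 383 to 411 bases downstream of the annotated start, and 2 of these, GGGAATTCCC and GGGGAATTCC, are readings of nearly the same bases on the opposite strands. The other, GGGGCTTTCC, had the same bases as the match upstream of Bcl3. All 3 matches lay upstream of a RefSeq start at chr19:46304737. Of the remaining 5 Etv4 regions, 3 were near transcript starts of Psd, 9.84 to 13.7 kb downstream, and 1 lay 38 bp from a transcript start of Fbxl15. Psd encodes an exchange factor for ARF6 and Fbxl15 an F-box protein. The Etv4 region at Fbxl15 overlapped the lowest-numbered Etv5 region of Nfkb2, chr19:46328262-46328844, by 254 bp, or 43.8% of the Etv4 and 43.6% of the Etv5 region. The midpoints of this pair were 328 bp apart, the widest separation of the 7. The last regions of each list were 48.3 and 52.6 kb downstream and did not overlap.

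Rela (ENSMUSG00000024927.8) encodes p65, the subunit that activates most NF-κB targets, and lies on the plus strand at chr19:5637483-5648130. None of its 5 Etv4 regions was in the gene, and the nearest was 26856 bp away from it. Of these, 4 lay 27.2 to 35.0 kb upstream at the starts of Kat5, which encodes the acetyltransferase TIP60, and Rnaseh2c, which encodes a subunit of RNase H2. The lowest-numbered, chr19:5688771-5689918 (number 5073, 37.2% of the list), lay 51.9 kb downstream. Its midpoint was in Map3k11, 210 bp from a transcript start of that gene and 436 bp from the gene start of Pcnx3. In the 500 bp around the midpoints of these 5 regions, ETS matches lay at Kat5, CAGGAAGT in 1 region and CCGGAAGT at 2 places in another. Relb (ENSMUSG00000002983.17) encodes the partner of p52 in the non-canonical pathway and lies on the minus strand at chr7:19606217-19629438. Its single Etv4 region, chr7:19604191-19604537, was 25.1 kb downstream of the start, 1680 bp beyond the 3′ end of the gene, and 122 bp from the start of the neighbouring gene Clasrp. It had no match to any pattern. The starts of Rela and Relb were thus without a region of either list.

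Tnfaip3 (ENSMUSG00000019850.11) encodes A20, a ubiquitin-editing enzyme that ends signalling to NF-κB, and lies on the minus strand at chr10:19000910-19015657. The Etv4 region chr10:19015138-19015890 spanned its start. It had the κB matches GGGACACCCC and GGGGATTTCC, 126 and 239 bases downstream of the annotated start, and an AP-1 match 114 bases downstream. All of these matches lay upstream of a RefSeq start at chr10:19015410. The Etv5 list had no region within 30170 bp of this Etv4 region. The only other Etv4 region, chr10:19045712-19046600, was intergenic, 30.5 kb upstream, and overlapped the Etv5 region chr10:19046060-19046381. The Etv5 region covered 36.2% of the Etv4 region and lay wholly within it. In the common part there was an AP-1 match and there were 3 RUNX matches, as printed above. The positions of these regions in their lists were far apart, at 14.9% for Etv4 (number 2035) and 94.4% for Etv5 (number 7834).

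The regions of the 9 genes were next compared with the whole lists. Overlap with the Etv5 list was found for 7 of the 32 Etv4 regions (21.9%, exact 95% binomial interval 9.28 to 40.0%), compared with 37.8% of the whole Etv4 list (interval 37.0 to 38.6%). Overlap with the Etv4 list was found for 7 of the 11 Etv5 regions (63.6%, interval 30.8 to 89.1%), compared with 63.2% of the whole list (interval 62.1 to 64.2%). Both list values lay inside the intervals of the 9 genes, so that a difference was not detectable with this number of regions. Of the 32 Etv4 regions, 22 had their midpoint within 2 kb of any transcript start (68.8%, interval 50.0 to 83.9%). The same was true of 8 of the 11 Etv5 regions (72.7%, interval 39.0 to 94.0%). The whole lists had 36.5% (interval 35.7 to 37.3%) and 33.1% (interval 32.1 to 34.1%), and these intervals did not reach those of the 9 genes. The windows were centred on genes by construction, and the list values were not restricted to such windows. Of the other regions of the 9 genes, 6 Etv4 and 2 Etv5 regions were intergenic, 3 and 1 were in introns, and 1 Etv4 region was in an exon. All intervals given here cover counting error only, and regions in a common window are not independent.

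The region number, given as the percentage of the list, was 54.8% in the median for the Etv4 regions (range 6.37 to 94.4%) and 68.0% for the Etv5 regions (range 25.7 to 94.4%). A list as a whole has a median of 50% by construction. The first 10% of the list held 2 of the 32 Etv4 and 0 of the 11 Etv5 regions, and the first 50% held 14 and 3. Etv4 regions that overlapped the other list had a median of 36.5%, against 58.2% for the others, and Etv5 regions had 52.6 and 74.3%. The criterion behind the number is not stated. Median lengths were 587.5 bp for Etv4 and 404 bp for Etv5, with 589 and 532 bp in the whole lists.

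**Figure D4:**
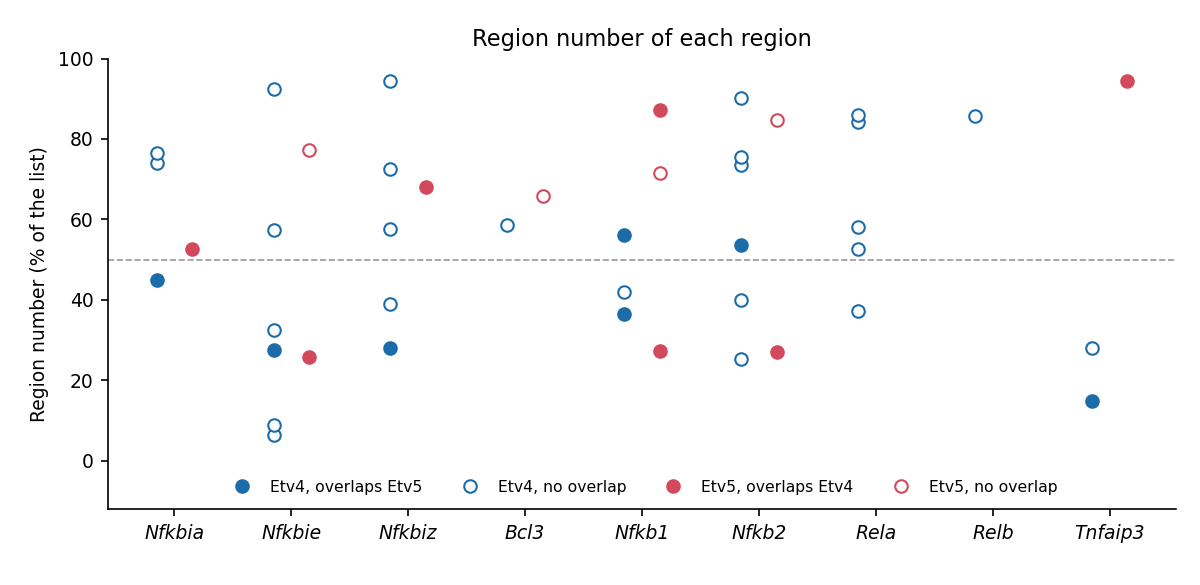
Region number as a percentage of its list for every Etv4 (blue) and Etv5 (red) region of the 9 genes, filled where the region overlapped the other list, with a dashed line at 50%. The lowest values are the 2 long Etv4 regions of Nfkbie at 6.37 and 8.87%, and the Etv5 regions run from 25.7 to 94.4%.

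The κB pattern was then counted. The genes were chosen as NF-κB genes, several of them known for κB sites in their promoters, so that a high share was favoured by the choice of genes, and the list values are given as a description only. In 500 bp around the midpoint, it was present in 10 of 32 Etv4 regions (31.2%, interval 16.1 to 50.0%), compared with 7.78% of the whole list (interval 7.34 to 8.25%). Among the Etv5 regions, 4 of 11 had it (36.4%, interval 10.9 to 69.2%), compared with 7.42% (interval 6.86 to 8.0%). Within 2 kb of a transcript start, 8 of the 22 Etv4 and 3 of the 8 Etv5 regions had a match, and the shares of the whole lists there were 9.36 and 9.49%. In the central 200 bp, where the shares were 6.25% for Etv4 (2 of 32, interval 0.766 to 20.8%) and 18.2% for Etv5 (2 of 11, interval 2.28 to 51.8%), the list values of 3.48 and 3.41% lay inside the intervals. Most κB matches of the Etv4 regions were thus off the centre of the region. Of the 8 regions at the starts of 7 genes, 7 had a κB match, at every one of these genes but Nfkb1. RefSeq promoters of 300 bases were at hand for 6 of the 9 genes (9 entries), not for Nfkbiz, Nfkb1 and Relb. Of these 9 entries, 7 held the κB pattern, at every gene but Rela, compared with 4.51% of 32851 promoters. This count does not depend on the Etv4 and Etv5 lists, and the choice of the genes favours it.

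The κB matches of these regions were few among those in the windows. The windows of the 9 genes held 189 κB matches, of which 16 lay in a region of either list. This was 0.701 per kb of region (22.8 kb), against 0.158 per kb of the windows outside the regions. Bcl3 had 32 matches in its window and 1 in a region, Relb had 21 and 0, and Nfkb2 had 21 and 4. Base composition was not matched in this count, and its part was not tested. The 15 κB matches in the 500 bp windows had 11 different sequences. GGGAATTTCC occurred at Nfkbia and Nfkbiz, GGGGCTTTCC at Bcl3 and Nfkb2, GGGGAATTCC at Nfkb2 and upstream of Tnfaip3, and GGGACACCCC at Nfkbia and Tnfaip3. No κB match shared a base with a match to the full ETS, AP-1 or RUNX pattern. However, 12 of the 15 κB matches held GGAA on either strand, bases that are also part of the ETS pattern.

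**Figure D5:**
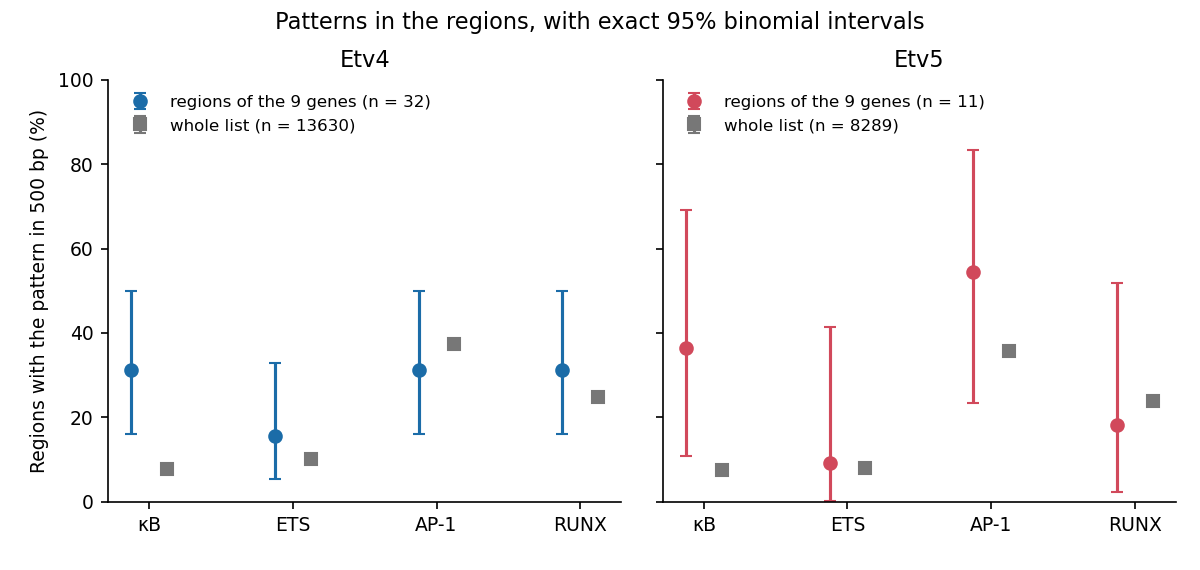
Share of regions with each pattern in 500 bp around the midpoint, for the regions of the 9 genes (coloured, n = 32 and 11) and the whole lists (grey), with exact 95% binomial intervals. The κB shares of 31.2 and 36.4% lie above list values of 7.78 and 7.42%, while the ETS, AP-1 and RUNX intervals of the 9 genes include the list values.

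The patterns of ETS, AP-1 and RUNX factors occurred at shares for which the interval included the list value. An ETS match was found in 5 of 32 Etv4 regions (15.6%, interval 5.28 to 32.8%), with 10.2% in the list. It was found in 1 of 11 Etv5 regions (9.09%, interval 0.23 to 41.3%), with 7.93% in the list. All of these were in the windows of Nfkbie and Rela, at distances of 17.2 kb or more, and none of the 8 regions at the gene starts had an ETS match. Of all regions within 2 kb of a transcript start, 13.5% of the Etv4 and 10.4% of the Etv5 list had such a match, so that a lower share was not detectable with 8 regions. Only exact matches to the pattern were counted, so sequences that differ from it by 1 base were left out. AP-1 matches were present in 10 Etv4 regions (31.2%, list 37.4%) and 6 Etv5 regions (54.5%, interval 23.4 to 83.3%, list 35.8%). At the gene starts they occurred in 3 of the 8 regions, at Nfkbie, Bcl3 and Tnfaip3, and the whole lists had 19.6 and 21.0% within 2 kb of a transcript start. RUNX matches were present in 10 Etv4 regions (31.2%, list 24.7%) and 2 Etv5 regions (18.2%, list 23.9%). In the 300-base promoters, ETS and RUNX matches were present in 0 of the 9 entries and in 7.07 and 9.27% of all promoters, and AP-1 matches in 2 of the 9, at Nfkbie and Tnfaip3, and in 5.2% of all.

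A list of 37 other genes of the pathway was counted by the same rules, with all 37 found in the annotation. Etv4 regions lay in or within 50 kb of 25 of them (67.6%), Etv5 regions of 16 (43.2%) and overlapping pairs of 11 (29.7%). The values for all protein-coding genes, as above, were 53.4, 42.7 and 29.5%. Etv4 regions came within 2 kb of the start at 11 genes (29.7%, against 15.8% of all genes) and Etv5 regions at 5 (13.5%, against 8.95%). Both occurred at 2 genes (5.41%, against 5.29%), Cyld and Sharpin, which encode a deubiquitinase and a part of the linear ubiquitin ligase. Among the IκB genes not included above, Nfkbib, which encodes IκBβ, had 4 regions of each list and an Etv5 region at its start, while Nfkbid had no region. Rel, which encodes the subunit c-Rel, had 1 Etv4 region, at its start, and no Etv5 region. Of the IκB kinase genes, Chuk had 2 regions of each list, with an Etv4 region at the start, Ikbkg had 1 Etv4 region in the gene, and Ikbkb had none. The kinase gene of the non-canonical pathway, Map3k14, had 3 Etv4 and 2 Etv5 regions, of which 2 of each overlapped. In all, 12 of the 37 genes (32.4%) had no region of either list, among them Birc2, Birc3, Traf1, Traf3, Traf6 and Tnip1. This applied to 40.4% of all protein-coding genes.

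The limit of 50 kb fell into gaps between regions. The farthest regions inside it lay 44.4 kb (Nfkb2, Etv5), 40.6 kb (Rela, Etv4) and 40.1 kb (Nfkb2, Etv4) from the gene. The nearest outside it were 56.5 kb (Rela, Etv4), 62.2 kb (Nfkb1, Etv4) and 64.3 kb (Rela, Etv5) away. Of all these regions, 2 contained stretches of 36 bases with more than a single copy in the genome, with shares of 3.79% in the region of Nfkbie with number 868 and 0.378% in the Etv4 region of Bcl3.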

How the data were processed

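ChIP-seq libraries of Etv4 and Etv5 were grouped by the antibody in the labels. Library DNA went through 15 PCR cycles and size selection, and the authors called regions on mm10 with CisGenome in its one-sample mode, at a window of 300 bp and a p threshold of 0.1. Bowtie is named in the submitters' processing notes. The ChIP-seq methods point to those of the accessibility libraries, whose reads were cut to 36 bp. Without an input library, uneven mappability, copy number and chromatin openness stay in the calls. The deposited BED lists have 6 columns and give the positions of regions. The deposited score is 1000 for every region and was not used. The name column holds a region number, which was used only to order regions. The shortest region measures 299 bp as end minus start, so that lengths are uncertain by 1 bp. Positions are counted from 1.

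Genes and transcripts came from GENCODE and the sequence from GRCm38. Distances were measured from region midpoints to the gene start, whereas a region counted as within 2 kb of a start, or within 50 kb of a gene, by its nearer edge. Features were assigned to the midpoint in the order within 2 kb of a transcript start, exon, intron and intergenic. Patterns were searched in 500 bp around the midpoint on both strands, without mitochondrial regions. Promoters were those of RefSeq on GRCm38.p6, 250 bases before to 50 after the start. Intervals are exact (Clopper-Pearson) 95% binomial intervals. Since each antibody had 1 library, no test was made.

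The genes, the pathway list, the patterns and the alternatives were chosen with earlier results of these data known. All 9 genes were described, with each region inside the gene or within 2 kb of its start and the lowest-numbered region of each list. Neighbouring genes were named as the nearest gene start of such a region. Those of other regions, and Map3k11 near Rela, were named after their positions were seen. The overlap and pattern search recovered 300 of 300 overlaps and 200 of 200 κB sites planted in simulated data. Scripts ran under Python 3.11.15 and used pandas 2.3.3 and numpy 2.4.6 for tables, scipy 1.17.1 for intervals, numba 0.67.0 for counting repeated sequences and matplotlib 3.10.9 for plots. Chromatin accessibility and RNA levels of the study were not used here.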

Additional observations from a re-analysis of the deposited data

How the results depend on the processing

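Of 68 values recomputed under alternatives, 49 stayed within 1.5 times the main count, within the interval of the main share or within the quartiles of the region number, and 19 moved. The number of Etv4 and Etv5 regions was 21 and 7 within 20 kb of the genes, 51 and 24 within 100 kb, 9 and 5 for regions touching the gene, and 16 and 3 in the longer 50% of each list. It was 17 for Etv4 when the nearest gene start had to be that of the gene. Genes with a region numbered 5 (Etv4) and 4 (Etv5) for regions touching the gene, and 3 with the longer 50% of the Etv5 list, in which 0 genes had an Etv5 region at the start. In the central 200 bp, the share of Etv4 regions was 15.6% for AP-1, 12.5% for RUNX and 6.25% for κB, and that of Etv5 regions was 18.2% for AP-1 and 0% for ETS. The strict ETS pattern CCGGAAGT was also at 0% in Etv5 regions. A smaller window, a shorter list or a stricter pattern lowers a count by construction, and other causes were not tested. The shares of overlap and of regions near a transcript start, the numbers of genes with an Etv4 region at the start and the median region numbers stayed under every alternative run for them, and leaving out regions made mostly of repeated 36-base sequences removed no region. The Etv5 regions at the starts of Nfkbia, Nfkbie and Bcl3 were all in the shorter 50% of that list. With 11 Etv5 regions, 1 region moves a share by 9.09 percentage points. No paired analysis was possible because the result comes from no test and an antibody had only 1 library.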
